A study of Rattus norvegicus with 39 samples.

Results

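MicroRNAs of circulating blood cells were followed in rat sperm samples: rno-miR-451-5p of red blood cells, rno-miR-223-3p of granulocytes and monocytes, and rno-miR-150-5p of mature lymphocytes. They were taken by name from the deposited table of mature miRNA counts and are 3 of its 405 rows. Wild-type male Fischer rats aged 11 to 12 weeks had been given ethylene glycol monomethyl ether, EGME for short, a solvent known for its toxicity to spermatocytes, by oral gavage in water on 5 days. Sperm of the cauda epididymis was taken 5 weeks after the last dose. The groups are EGME0 (water alone, n = 10), EGME50 (50 mg/kg/d, n = 10), EGME60 (60 mg/kg/d, n = 9) and EGME75 (75 mg/kg/d, n = 10), and each of the 39 libraries held the RNA of 1 male. How the sperm were cleared of somatic or blood cells is not given in the sources used here.

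A miRNA is a short RNA that, loaded into an Argonaute protein, pairs mainly through its seed (bases 2 to 8) with messenger RNAs and lowers their output. miR-451 is one of the main miRNAs of red blood cells. Unlike nearly all others it is cut from its precursor by Argonaute 2 and not by Dicer, and it is transcribed together with miR-144. miR-223 rises as granulocytes and monocytes mature in the bone marrow, and miR-150 rises in maturing B and T cells, where it restrains the transcription factor Myb. Mature sperm are largely silent in transcription and carry few RNAs per cell, so a sperm preparation can also hold RNA of other cells that were collected with it.

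The mature sequences of miR-451-5p and miR-223-3p are shown because the names in the count table stand for these letters and because a near-identical relative could have drawn reads from them; the seed is in capitals, and the sequences are RefSeq's, from a table on GRCr8.
rno-miR-451-5p: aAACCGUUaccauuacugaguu
rno-miR-223-3p: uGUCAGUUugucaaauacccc
RefSeq's table matched 2 of the 3 members by name. Neither seed was found in any of the 692 other rat mature sequences of that table (0 for both), and the closest of them differed from miR-451-5p by 8 edits and from miR-223-3p by 9. No other row of the 4 deposited tables held the same 39 counts as any of the 3 members. In the same RefSeq gene table the genes Mir144 and Mir451a lie side by side, with 0 other genes overlapping the stretch that holds both. No coordinates are given, because that table is on another assembly than the one the deposited tables name.

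The miRNA counts of a library ran from 139 to 38208 (median 10030), and the summed counts of all 4 tables (mature miRNAs, tRNA genes, Ensembl noncoding transcripts and RNAcentral entries) from 244869 to 24308152. The group median of the miRNA counts was 15325 in control males and 14786, 9270 and 3202 in the EGME50, EGME60 and EGME75 groups. All libraries with fewer than 1000 miRNA counts were EGME75 libraries: replicate 24 with 139, replicate 23 with 807 and replicate 7 with 995. The miRNA share of all counts averaged 0.178% ± 0.0731 (SD, n = 10) in control males, 0.169% ± 0.0939 (n = 10) with EGME50, 0.118% ± 0.0907 (n = 9) with EGME60 and 0.0554% ± 0.0522 (n = 10) with EGME75. A level relative to miRNA counts and a level relative to all counts therefore need not move alike, and both are given below.

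All 3 members were rare RNAs in these samples, with 824 counts of miR-451-5p, 1113 of miR-223-3p and 610 of miR-150-5p over the 39 libraries. A library with any of them mostly had all: 27 libraries held all 3, 6 held 2, 5 held 1, and EGME0 replicate 33, with 1098 miRNA counts, held 0. The mature miRNA table contained 9662 zeros but only 17 values of 1, against 1088 values of 2 (RNAcentral: 181059 values of 1 and 137334 of 2). Among the 3 member rows, 19 values were 0, none was 1 and 12 were 2. A listed 0 may therefore hide a read, and no upper limit is drawn from it here.

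Summed, the 3 members made up a median of 0.0844% of the miRNA counts in control males and of 0.262%, 0.800% and 0.786% in the EGME50, EGME60 and EGME75 groups. In counts per 1000000 counts of all 4 tables, called all-table CPM here, their sum had a median of 1.96, 5.45, 5.29 and 3.86 in the same order. The medians of the dosed groups lay above the control median on both scales, and the order among the dosed groups differed between the scales. Single libraries overlapped. In all-table CPM the highest control library stood at 6.40, above every dosed median. Relative to miRNA counts the lowest EGME60 library stood at 0.0216%, below the control median. Pooled over libraries, of the 217 member counts at EGME0, 23.5% were miR-451-5p, 43.8% miR-223-3p and 32.7% miR-150-5p, while of the 337 at EGME75 the shares were 36.8%, 34.4% and 28.8%. These shares weight a library by its depth and were not tested: without EGME75 replicate 7 the pooled counts were 98 of miR-451-5p and 101 of miR-223-3p. Library by library, miR-451-5p was above miR-223-3p in 3 of 10 and below it in 5 of 10 libraries both at EGME0 and at EGME75.

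**Figure D1:**
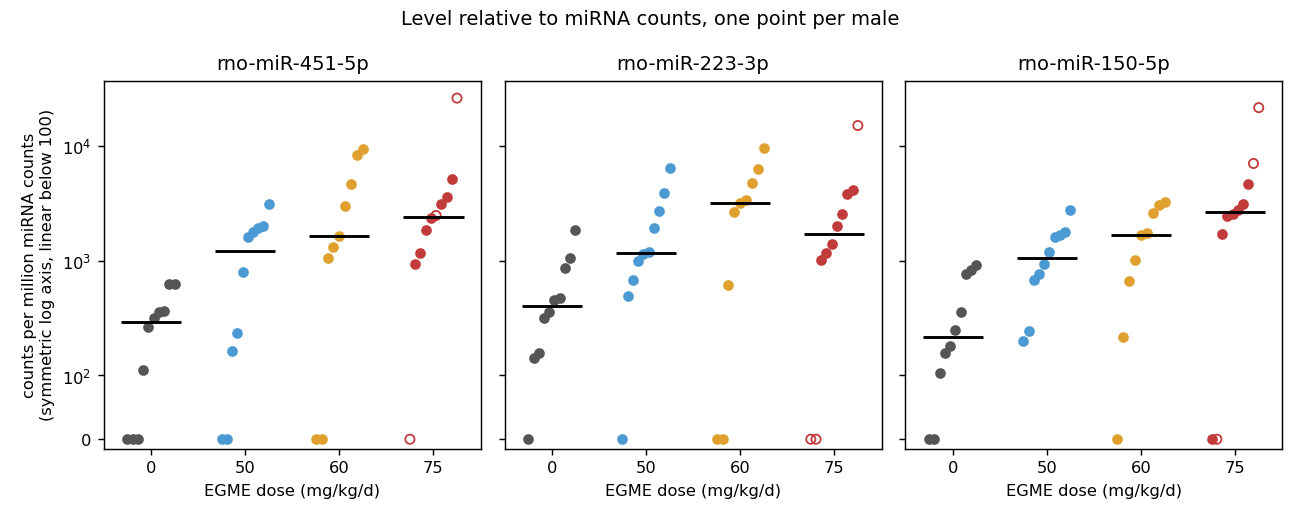
CPM (counts per 1000000 miRNA counts) of miR-451-5p, miR-223-3p and miR-150-5p (vertical axis, symmetric log scale, linear below 100) by EGME dose in mg/kg/d, with 1 point per male; the black line is the group median and open circles are the 3 libraries with fewer than 1000 miRNA counts. The control medians of 291, 406 and 216 lie below every dosed median, and each group holds libraries at 0 except EGME50 for miR-150-5p.

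The red blood cell miRNA, miR-451-5p, rose with dose relative to miRNA counts. In CPM (counts per 1000000 miRNA counts of the library), the EGME0 libraries ran from 0 to 630 with a median of 291, and the EGME50 libraries from 0 to 3140 with a median of 1206. The EGME60 libraries ran from 0 to 9401 with a median of 1651, and the EGME75 libraries from 0 to 26131 with a median of 2417. Of the dosed libraries, 6 of 10 EGME50, 7 of 9 EGME60 and 9 of 10 EGME75 libraries lay above the highest control library. Such numbers depend on depth, here and for the members below: EGME75 replicates 23 and 31 lay above it on 2 counts each. They are also not particular to the member: for miR-23a-3p, taken up below, they were 5 of 10, 6 of 9 and 9 of 10. The share over all miRNAs was not counted. miR-451-5p had counts in 7 of 10, 8 of 10, 7 of 9 and 9 of 10 libraries from EGME0 to EGME75, and among libraries with at least 1000 miRNA counts in 7 of 7 at EGME75. These detection counts were not tested, and depth differed between the groups. In mean CPM the groups were at 267 ± 240 (SD, n = 10), 1168 ± 1081 (n = 10), 3282 ± 3510 (n = 9) and 4676 ± 7677 (n = 10), the last 2292 ± 1539 (n = 9) without replicate 7 and then below the EGME60 mean.

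In edgeR's quasi-likelihood fit over the whole miRNA table (105 miRNAs tested, Benjamini-Hochberg adjustment over all of them, threshold 0.05), miR-451-5p was higher by 2.93 on the log2 scale at EGME60 (SE 0.69, adjusted p = 0.00137) and by 3.26 at EGME75 (SE 0.72, adjusted p = 2.63e-04). At EGME50 the log2 fold change was 1.62 (SE 0.67, adjusted p = 0.181) and did not pass. Fitted as a slope, the log2 change over 75 mg/kg/d was 3.36 (SE 0.71, adjusted p = 1.39e-04). Among the 105 miRNAs these values ranked it 5, 2 and 3 from the highest at EGME50, EGME60 and EGME75. The background was wide: 2.86% of the miRNAs passed the test at EGME50 (3 of 105), 31.4% at EGME60 (33, of which 21 higher), 42.9% at EGME75 (45, of which 23 higher) and 45.7% in the slope (48, of which 26 higher). Over all tested miRNAs the median log2 fold change was -0.01, 0.11, -0.10 and 0.04 in these comparisons. In bulk RNA on this scale, more red blood cells, more of this miRNA per cell or less of other miRNAs cannot be told apart. The same holds for the other members below.

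The EGME75 group mean rests in part on replicate 7, whose 26 counts among 995 gave 26131 CPM (95% Wilson interval 17894 to 38013, counting error only). Without that library the log2 fold change at EGME75 was at its lowest of all leave-one-out values, 2.59, and still passed. EGME75 replicate 24, with 139 miRNA counts, was the only library of the group at 0. The next lowest EGME75 libraries stood at 936, 1172 and 1851 CPM, above the value of every control library. The values of 936 and 1172 came from 2 and 5 counts. Their Wilson intervals, 257 to 3408 and 501 to 2740, reached below the highest control value of 630.

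The myeloid miRNA, miR-223-3p, was also higher in dosed males, with its highest median at EGME60. Its CPM ran from 0 to 1848 at EGME0 (median 406) and from 0 to 6477 at EGME50 (median 1171). It ran from 0 to 9642 at EGME60 (median 3214) and from 0 to 15075 at EGME75 (median 1705). The overlap was larger than for miR-451-5p: 4 of 10 EGME50, 6 of 9 EGME60 and 5 of 10 EGME75 libraries lay above the highest control library. Libraries with counts numbered 9 of 10, 9 of 10, 7 of 9 and 8 of 10. In mean CPM the groups were at 567 ± 554 (SD, n = 10), 1955 ± 1962 (n = 10), 3394 ± 3176 (n = 9) and 3120 ± 4429 (n = 10), the last 1791 ± 1490 (n = 9) without replicate 7.

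In edgeR, miR-223-3p was higher at EGME60 by 2.04 (SE 0.58, adjusted p = 0.00535) and at EGME75 by 1.77 (SE 0.60, adjusted p = 0.0135). At EGME50 its log2 fold change of 1.34 (SE 0.57, adjusted p = 0.191) did not pass. The slope was 2.03 over 75 mg/kg/d (SE 0.60, adjusted p = 0.00437). The call at EGME75 rested on replicate 7: without it the log2 fold change was 1.34 (edgeR adjusted p = 0.0690), and without all 3 libraries of fewer than 1000 miRNA counts it was 1.51 (adjusted p = 0.0535).

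The lymphocyte miRNA, miR-150-5p, had its highest median at the highest dose. Its CPM ran from 0 to 924 at EGME0 (median 216) and from 199 to 2748 at EGME50 (median 1063). It ran from 0 to 3247 at EGME60 (median 1684) and from 0 to 21583 at EGME75 (median 2668). Libraries above the highest control library numbered 6 of 10, 6 of 9 and 8 of 10, and those with counts 8 of 10, 10 of 10, 8 of 9 and 8 of 10. It was the one member with counts in every EGME50 library. In mean CPM the groups were at 359 ± 354 (SD, n = 10), 1183 ± 787 (n = 10), 1583 ± 1206 (n = 9) and 4591 ± 6319 (n = 10), the last 2703 ± 2195 (n = 9) without replicate 24.

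In edgeR, miR-150-5p was higher at EGME75 by 2.33 (SE 0.62, adjusted p = 0.00167) and at EGME60 by 1.57 (SE 0.60, adjusted p = 0.0381), and its slope was 2.20 (SE 0.59, adjusted p = 0.00174). At EGME50 the log2 fold change was 1.22 (SE 0.58, adjusted p = 0.274). Its highest value, 21583 CPM in EGME75 replicate 24, came from 3 counts among 139 (Wilson interval 7367 to 61531). The EGME75 call did not depend on it or on any other single library (log2 fold change 2.15 to 2.58 when each library was left out in turn). The EGME60 call was the least firm of the members' calls: it was lost when any of 8 libraries was left out (EGME0 replicates 1, 2, 10, 18 and 25 and EGME60 replicates 5, 22 and 29; adjusted p from 0.0537 to 0.0800, log2 fold change 1.44 to 1.54).

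The 3 dosed groups shared 1 set of control libraries, so their differences from control are not independent of each other. Between neighbouring doses no member passed the test. From EGME50 to EGME60, 0% of the miRNAs passed the edgeR test (0 of 105, with 14 at an unadjusted p under 0.05; DESeq2 called 3 and limma-voom 0). The members' log2 differences there were 1.31 for miR-451-5p (95% interval 0.07 to 2.54, adjusted p = 0.338), 0.70 for miR-223-3p (-0.38 to 1.77, adjusted p = 0.563) and 0.36 for miR-150-5p (-0.75 to 1.47, adjusted p = 0.823). From EGME60 to EGME75, again 0% passed in edgeR (0 of 105, with 8 at an unadjusted p under 0.05; DESeq2 and limma-voom each called 0). The log2 differences were 0.33 for miR-451-5p (-0.95 to 1.61, adjusted p = 0.946), -0.27 for miR-223-3p (-1.41 to 0.87, adjusted p = 0.971) and 0.75 for miR-150-5p (-0.43 to 1.94, adjusted p = 0.840). The 95% intervals are normal ones, from the standard errors, and leave room for differences of more than 1 log2 unit in 1 or both directions.

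**Figure D2:**
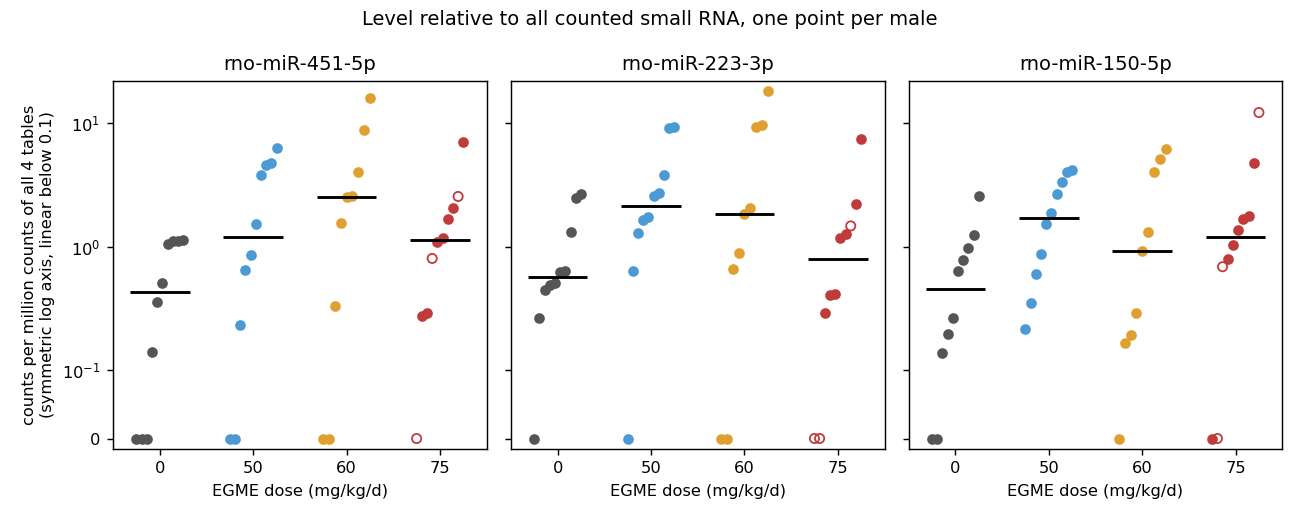
All-table CPM of the same 3 miRNAs, in counts per 1000000 counts of all 4 tables (vertical axis, symmetric log scale, linear below 0.1) by EGME dose in mg/kg/d, with 1 point per male, group medians as black lines and open circles for the 3 libraries with fewer than 1000 miRNA counts. On this scale the EGME75 medians of 1.13, 0.799 and 1.20 lie closer to the control medians of 0.430, 0.564 and 0.451 than they do relative to miRNA counts.

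Relative to all counted small RNA, the members had higher means in every dosed group than in control, for miR-223-3p at EGME75 only through replicate 39, and most calls were lost. In all-table CPM, miR-451-5p had a mean of 0.542 ± 0.511 (SD, n = 10) at EGME0, 2.27 ± 2.34 (n = 10) at EGME50, 3.99 ± 5.29 (n = 9) at EGME60 and 1.70 ± 2.05 (n = 10) at EGME75. Its highest library was EGME60 replicate 5 at 16.04, and 5 of 10, 6 of 9 and 5 of 10 dosed libraries lay above the highest control library at 1.13. miR-223-3p had means of 0.944 ± 0.926, 3.31 ± 3.35, 4.78 ± 6.38 and 1.48 ± 2.24 in the same order, and at EGME75 only 1 of 10 libraries, replicate 39 at 7.51, lay above the highest control library. Without it the EGME75 mean of miR-223-3p was 0.808 ± 0.766 (n = 9), below the control mean, and that of miR-451-5p 1.10 ± 0.868 (n = 9). miR-150-5p had means of 0.682 ± 0.796, 1.96 ± 1.51, 2.03 ± 2.42 and 2.44 ± 3.71, with 2 of 10 EGME75 libraries above the highest control library. Without EGME75 replicate 24, at 12.3, the EGME75 mean of miR-150-5p was 1.35 ± 1.44 (n = 9), below those of EGME50 and EGME60. Without EGME60 replicate 5 the EGME60 means were 2.48 ± 2.93 (n = 8) for miR-451-5p and 3.07 ± 4.08 (n = 8) for miR-223-3p. The plot of log2 fold changes sets both scales side by side.

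With the summed total of all 4 tables as library size, the edgeR log2 fold change of miR-451-5p was 2.77 at EGME60 (SE 0.85, adjusted p = 0.0585) and 1.63 at EGME75 (SE 0.82, adjusted p = 0.0964), while its slope of 2.36 still passed (SE 0.92, adjusted p = 0.0479). For miR-223-3p the values were 2.26 at EGME60 (SE 0.80, adjusted p = 0.125) and 0.66 at EGME75 (SE 0.78, adjusted p = 0.531). For miR-150-5p they were 1.47 at EGME60 (SE 0.80, adjusted p = 0.234) and 1.25 at EGME75 (SE 0.83, adjusted p = 0.218). This scale moved all miRNAs at EGME75: the median of the 105 tested was -1.13, and of 42 called miRNAs 3 were higher and 39 lower, against 23 higher and 22 lower when scaled within the miRNA table and 33 higher and 10 lower with plain miRNA totals. At EGME60 plain miRNA totals gave 32 higher and 7 lower. Measured from the median of all tested miRNAs on this scale, miR-451-5p stood at 2.76, miR-223-3p at 1.79 and miR-150-5p at 2.39 at EGME75. Scaled within the miRNA table, the distances from the median were 3.36, 1.87 and 2.42. The choice of library size moves all miRNAs of a library alike, so these distances are largely fixed by construction and are a description only.

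**Figure D3:**
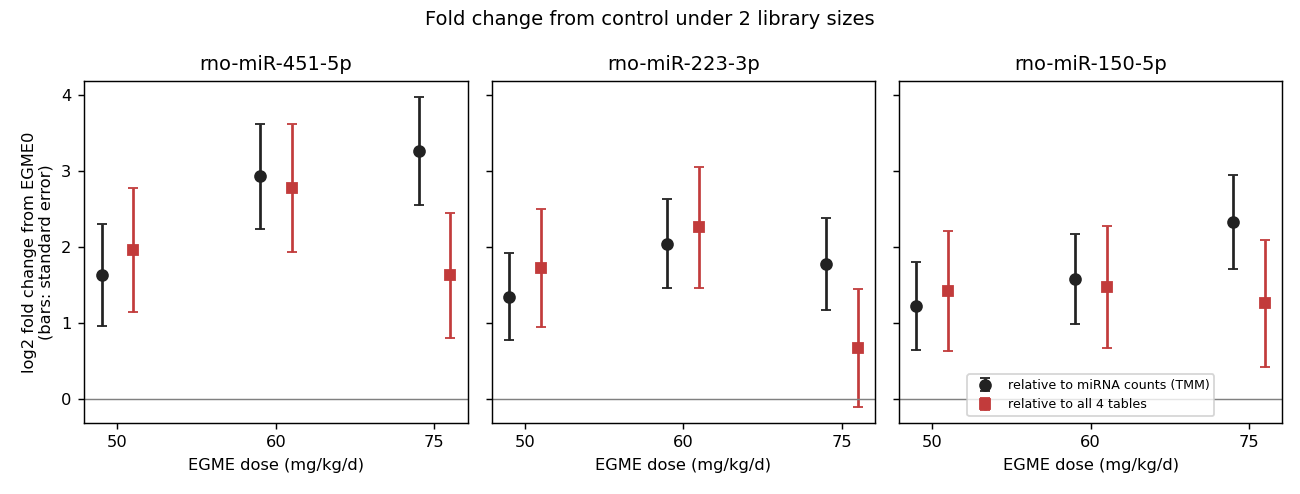
Log2 fold change from EGME0 (vertical axis) of the 3 miRNAs by EGME dose in mg/kg/d, from edgeR; points are estimates and bars standard errors, black circles relative to miRNA counts and red squares relative to all 4 tables. At 75 mg/kg/d the estimates fall from 3.26 to 1.63, from 1.77 to 0.66 and from 2.33 to 1.25 between the scales, while at 50 and 60 mg/kg/d they differ less.

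The libraries had been sequenced on 13 chips of 3 libraries each, with doses mixed over the chips, so dosed and control males could be set side by side within a chip. For EGME75 there were 6 such pairs on 6 chips. In CPM of miRNA counts, miR-451-5p was higher in the dosed male in 5 pairs and at 0 in both males of the other pair, miR-223-3p was higher in 4, lower in 1 and at 0 in both in 1, and miR-150-5p was higher in 5 and lower in 1. In all-table CPM the dosed male was higher in 3, 3 and 5 of the 6 pairs. For EGME60, with 7 pairs on 5 chips, the dosed male was higher in 5, 4 and 6 pairs in CPM and in 5, 4 and 4 in all-table CPM. For EGME50, with 7 pairs on 6 chips, it was higher in 6, 7 and 7 pairs on both scales. Some pairs shared a control male (EGME0 replicates 17 and 26 for EGME60, replicate 10 for EGME50), so the pairs are not all independent. With chip as a fixed block in edgeR, the log2 fold changes at EGME75 were 2.69 for miR-451-5p (adjusted p = 0.00997), 1.84 for miR-223-3p (adjusted p = 0.0420) and 2.88 for miR-150-5p (adjusted p = 0.00314), and the EGME60 value of miR-150-5p, 1.59, no longer passed (adjusted p = 0.0921).

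The ratio of miR-451 to miR-23a-3p within a library needs no scaling and is used on blood plasma and serum as a check for burst red blood cells. miR-23a-3p, whose level in plasma changes little when red blood cells burst, has a near-identical relative, miR-23b-3p (same seed, 1 edit apart), so reads could have been split between them.
rno-miR-23a-3p: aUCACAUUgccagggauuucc
The log2 ratio, with 0.5 added to both counts, ran from -6.48 to -2.25 at EGME0 (median -4.08) and from -7.28 to -1.84 at EGME50 (median -3.21). It ran from -6.94 to -0.98 at EGME60 (median -2.88) and from -4.05 to -0.42 at EGME75 (median -2.33). No EGME75 library lay below the control median (0 of 10), while 4 EGME50 and 3 EGME60 libraries did, and 4 of 10 EGME75 libraries lay above the highest control library. These counts depend on depth, because a library without miR-451-5p gets a ratio set by its miR-23a-3p count alone. EGME75 replicate 24, at 0 for miR-451-5p, stood at -3.17, while EGME0 replicates 2 and 10, also at 0, stood at -6.48 and -6.02. The mean was -4.27 ± 1.42 (SD, n = 10) at EGME0 and -2.45 ± 0.95 (n = 10) at EGME75, a difference of 1.82 (SE 0.54, two-sided permutation test with 100000 resamples, p = 0.00292, adjusted over 3 doses p = 0.00876). At EGME60 the difference was 1.17 (SE 0.78, two-sided exact permutation test, adjusted p = 0.212) and at EGME50 0.45 (SE 0.71, two-sided permutation test, adjusted p = 0.527). Among libraries with at least 1000 miRNA counts, the EGME75 difference was 1.61 (SE 0.53, n = 7 against 10, two-sided exact permutation test, adjusted p = 0.0358). The part of depth in it was not tested. In counts pooled over a group, there were 0.0559 counts of miR-451-5p per count of miR-23a-3p at EGME0 and 0.132, 0.192 and 0.213 at EGME50, EGME60 and EGME75. miR-23a-3p itself rose relative to miRNA counts, from 4869 ± 2180 CPM (n = 10) at EGME0 to 18740 ± 7997 (n = 10) at EGME75 (edgeR log2 fold change 1.21, adjusted p = 0.00106). In all-table CPM it stood at 9.39 ± 7.79 (n = 10) and 9.58 ± 9.08 (n = 10), with a log2 fold change of -0.02 (SE 0.58, edgeR adjusted p = 0.981).

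**Figure D4:**
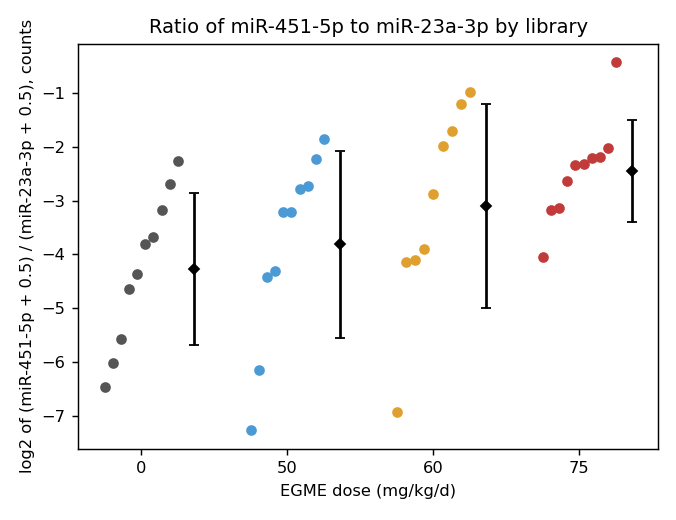
Log2 ratio of miR-451-5p to miR-23a-3p counts, each with 0.5 added (vertical axis), by EGME dose in mg/kg/d, with 1 point per male; diamonds and bars are the group mean and SD. The EGME75 points lie between -4.05 and -0.42 around a mean of -2.45, the EGME0 points between -6.48 and -2.25 around -4.27.

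Other blood cell miRNAs were looked up from lists of red blood cell, granulocyte and monocyte, lymphocyte and general leukocyte miRNAs. miR-144, which shares its transcript with miR-451, had very few counts.
rno-miR-144-5p: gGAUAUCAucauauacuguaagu
rno-miR-144-3p: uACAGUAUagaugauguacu
miR-144-5p had 16 counts in 4 libraries and miR-144-3p 2 counts in 1 library, and both stood at 0 in all 10 EGME75 libraries. The EGME0 mean of miR-144-5p, 14.3 CPM, comes to less than 1 count at the EGME75 depth, so these zeros do not show absence. The partner strand miR-150-3p had 94 counts in 17 libraries, with 19, 20, 21 and 34 counts from EGME0 to EGME75. miR-155-5p of activated lymphocytes had 20 counts in 4 libraries, none of them at EGME0 or EGME75. The general leukocyte miRNAs miR-142-3p and miR-142-5p had 35 counts in 9 libraries and 87 counts in 18 libraries. miR-142-5p had counts in 7 of 10 EGME0 and 3 of 10 EGME75 libraries, at 227 ± 184 and 127 ± 206 CPM (SD), which was not tested. At the median EGME75 depth of 3202 miRNA counts such a level comes to less than 1 count, so its detection cannot be compared between these groups. None of these 6 passed the filter on low counts.

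The general leukocyte miRNA miR-146a-5p was tested and did not pass at EGME60 or EGME75. It averaged 758 ± 478 CPM (SD, n = 10) at EGME0, 1351 ± 1190 (n = 10) at EGME50, 1477 ± 1117 (n = 9) at EGME60 and 1425 ± 1740 (n = 10) at EGME75, with edgeR log2 fold changes of 0.80 at EGME60 and 0.75 at EGME75. Of the 10 blood cell miRNAs listed and present, 4 were thus tested, and the 3 called higher at EGME60 and EGME75 were the 3 members, where 21 and 23 of all 105 tested miRNAs were called higher. miR-126a of endothelium and platelets, on a list of its own, had 386 counts of its 3p and 293 of its 5p strand and was not tested.

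For the red blood cell miRNA miR-486 the mature table holds no row, but the RNAcentral table names an entry for its precursor, rno-mir-486, which was singled out after its values were seen. The entry averaged 9.14 ± 3.27 (SD, n = 10) counts per 1000000 counts of that table at EGME0, 5.93 ± 4.17 (n = 10) at EGME50, 3.60 ± 3.16 (n = 9) at EGME60 and 1.31 ± 1.50 (n = 10) at EGME75. This scale is relative to all RNAcentral counts and not to miRNA counts, so the values cannot be set directly against the CPM of miR-451-5p. In edgeR over the 2757 RNAcentral entries tested, its log2 fold change was -0.73 at EGME50, -0.94 at EGME60 and -1.81 at EGME75 (SE 0.46), where the median of all entries was 0.06, -0.16 and -0.62. With edgeR's relative log expression (RLE) scaling the EGME75 value was -2.69 and with plain totals -2.70, where the medians of all entries were -1.38 and -1.31. No p is given, because the entry was chosen for its values. For reference, the shares of RNAcentral entries called were 1.52% at EGME50, 20.9% at EGME60, 37.8% at EGME75 and 27.8% in the slope. miR-486 is also a miRNA of skeletal and heart muscle, and the entry is named for the precursor, so its reads need not be the mature strand. The entries rno-mir-223, rno-mir-150 and rno-mir-144 held 1, 10 and 3 counts in all, and no entry carried the name rno-mir-451.

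Markers of other cells moved with dose as well. The 5 germ cell miRNAs (both strands of miR-34b and miR-34c, and miR-449a-5p) summed to a median of 263173 CPM at EGME0 (197624 to 330892) and 133064 at EGME75 (64748 to 220530), and 4 of 5 fell in edgeR at EGME75, where 22 of all 105 tested miRNAs were called lower and 23 higher. The 5 epithelial miRNAs (the miR-200 family with miR-141 and miR-429) summed to a median of 8719 CPM at EGME0 (6249 to 12877) and 24930 at EGME75 (18091 to 47724), and 3 of 4 tested rose. The 4 muscle miRNAs (miR-133a, miR-1, miR-143 and miR-145) had medians of 16677 and 36987 CPM (9539 to 32667 and 11152 to 98000), and 1 of 2 tested rose; the striated muscle miRNA miR-1-3p had counts in 1 library only, an EGME0 library. In all-table CPM, the medians went from 389 to 58.4 for the germ cell list, from 13.5 to 11.2 for the epithelial list and from 28.9 to 14.9 for the muscle list. With the total of all 4 tables as library size, edgeR called 5 of 5 germ cell miRNAs lower at EGME75, 1 of 4 epithelial miRNAs higher and 0 of 2 muscle miRNAs, where 39 of all 105 were called lower and 3 higher. The muscle list's median log2 fold change turned from 0.72 to -0.36 between the scales. That of the epithelial list was 2.33 relative to miRNA counts and 1.38 with the total of all 4 tables. Its summed level and its tested miRNAs therefore did not move alike on the second scale. There its most abundant miRNA, miR-200c-3p, stood at -0.69. The part of these shifts in the members' values was not tested.

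**Figure D5:**
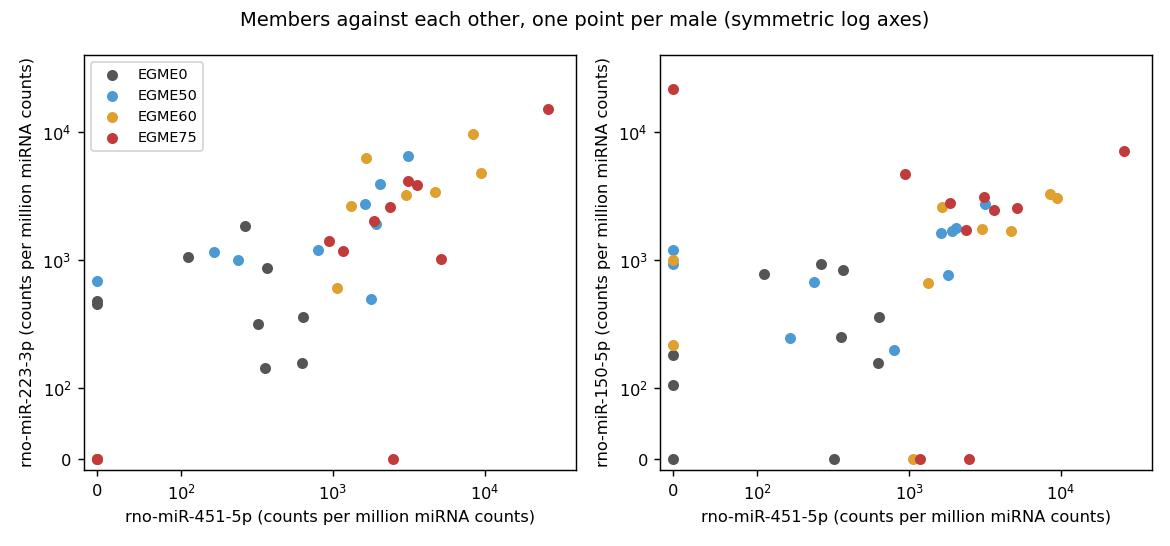
CPM of miR-223-3p (left, vertical axis) and miR-150-5p (right, vertical axis) against miR-451-5p (horizontal axis) on symmetric log scales, with 1 point per male coloured by group. Males high in miR-451-5p tend to be high in the others (Spearman 0.70 and 0.49 over 39 libraries). These correlations are of scaled log2 CPM and not of the plotted CPM. EGME75 replicate 24, at 0 and 21583, lies apart in the right panel.

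The members were positively correlated between males, most weakly miR-451-5p with miR-150-5p. Over the 39 libraries the Spearman correlation of scaled log2 CPM was 0.70 between miR-451-5p and miR-223-3p, 0.61 between miR-223-3p and miR-150-5p and 0.49 between miR-451-5p and miR-150-5p. Taken over deviations from the group means, these were 0.56, 0.60 and 0.33. The median correlation of a member with all 104 other tested miRNAs was 0.09, 0.08 and -0.09 for miR-451-5p, miR-223-3p and miR-150-5p. Among the 104 miRNAs compared with miR-451-5p, miR-150-5p held rank 18 only. miR-23a-3p, not a member, held rank 11 (0.63, and 0.46 over deviations). The points share library, depth and scaling, so these values are descriptions.

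Over the 39 libraries, the miRNAs whose pattern was most like miR-451-5p were the epithelial miR-200a-3p (Spearman 0.82, and 0.67 over deviations from group means), miR-27a-3p (0.74 and 0.52) and the epithelial miR-200b-3p (0.71 and 0.37), and miR-223-3p had rank 5 of 104 (0.70 and 0.56). Over deviations from group means, miR-223-3p stood above miR-27a-3p and miR-200b-3p. Closest to miR-223-3p were miR-451-5p (0.70 and 0.56), let-7d-5p (0.67 and 0.61) and miR-27a-3p (0.64 and 0.55). Closest to miR-150-5p were miR-23a-3p (0.68 and 0.61), miR-24-3p (0.63 and 0.47) and miR-223-3p (0.61 and 0.60), the last above miR-24-3p over deviations. miR-23a, miR-27a and miR-24 are transcribed as 1 cluster.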

How the data were processed

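Small RNA was sequenced from cauda epididymal sperm. The labels give a mirVana extraction with DNase and the Ion total RNA-seq kit. The submitters' processing notes name FastQC, Bowtie and DESeq2 without versions or roles; counting rules were not given in the sources used here. The authors deposited 4 tables of raw counts of sense reads, and all values used here are those deposited counts (columns matched to no sample: 0). The members, marker lists and tests were chosen with earlier results of these data known.

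The miRNA table was fitted with edgeR 4.0.16 in R 4.3.3 (limma 3.58.1): TMM scaling (factors 0.668 to 2.21), filterByExpr by group (105 of 405 miRNAs, holding 97.06% of counts), robust quasi-likelihood fits over 39 libraries and two-sided tests with Benjamini-Hochberg adjustment over all miRNAs tested. The RNAcentral table was fitted likewise. The code was tested on simulated data. CPM printed per library are counts divided by the library's miRNA total. Alternatives included DESeq2 1.42.0, limma-voom, other scalings, chip blocks, depth and leaving out each library. Ratios were tested by permutation (scipy 1.17.1, 100000 resamples, exact where a group had under 10 males). Named were the 3 members, other listed blood miRNAs in the table, miR-23a-3p and the 3 miRNAs most correlated with each member. Wilson intervals cover counting error only, since PCR reads are not independent molecules. Replicates are separate males.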

Additional observations from a re-analysis of the deposited data

Results flagged for a closer look

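Of 28 groups of values examined, 7 held a library that stood apart by Dixon's ratio of its gap to the group's range at the 95% level, where chance alone flags about 5% of groups. Several of these are the same library seen in different miRNAs or scales. Relative to miRNA counts, EGME75 replicate 7, with 995 miRNA counts, stood highest for miR-451-5p at 26131 CPM and for miR-223-3p at 15075 CPM. EGME75 replicate 24, with 139 miRNA counts, stood highest for miR-150-5p, at 21583 CPM and at 12.3 all-table CPM. In all-table CPM, EGME75 replicate 39 stood highest for miR-451-5p at 7.06 and for miR-223-3p at 7.51. EGME0 replicate 9 stood highest among control libraries for miR-150-5p, at 2.59 all-table CPM.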

How the results depend on the processing

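With the total of all 4 tables as library size, calls at EGME60 were lost for miR-451-5p (2.77), miR-223-3p (2.26) and miR-150-5p (1.47), at EGME75 for the same miRNAs (1.63, 0.66 and 1.25), and in the slope for miR-223-3p (1.63) and miR-150-5p (1.53); from EGME60 to EGME75, miR-451-5p (-1.14) and miR-150-5p (-0.22) changed sign. The call of miR-150-5p at EGME60 was also lost with chip as a fixed block (1.59), chip as a random block in limma-voom (1.38) and limma-voom (1.37), and that of miR-223-3p at EGME75 without libraries under 1000 miRNA counts (1.51). The difference of miR-451-5p from EGME60 to EGME75, which did not pass in any fit, was -0.050 with chip as a fixed block and -0.40 without libraries under 1000 counts.

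Leaving out each library in turn gave 1.44 to 1.87 for miR-150-5p at EGME60 and 1.34 to 2.18 for miR-223-3p at EGME75. From EGME60 to EGME75 it gave -0.78 to 0.028 for miR-223-3p, positive only without EGME60 replicate 5, and -0.46 to 0.66 for miR-451-5p, negative only without EGME75 replicate 7. For the ratio to miR-23a-3p at EGME60 it gave 0.91 to 1.66, which passed (permutation adjusted p = 0.0343) only without EGME60 replicate 13. Of 221 values under other settings 202 kept their direction and side of the threshold, and of 467 with 1 library left out 455 did. These totals include comparisons that did not pass in the main fit, where agreement is easily kept. Among the members' calls, agreement was lowest for miR-150-5p at EGME60 (6 of 10 settings and 11 of 19 libraries left out). It was complete for the slope of miR-451-5p (10 of 10 and 39 of 39). Both miR-451-5p and miR-223-3p had counts in 100% of the EGME75 libraries above 1000 counts. The causes of these changes were not tested.

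Called miRNAs numbered 3 at EGME50 (0 to 11 over the settings), 33 at EGME60 (1 with all 4 tables as library size, 61 with no filter), 45 at EGME75 (30 with the miRNA total as covariate, 67 with no filter) and 48 in the slope (22 and 90). Between doses they numbered 0, at most 4 in either comparison. No paired analysis was possible because no replicate number occurs in more than 1 dose group; chips, which the labels do share between groups, entered as blocks and as pairs of males instead. Counts limit every group: the members had 51 to 95 summed counts each at EGME0 and 97 to 124 at EGME75, where a library held a median of 3202 miRNA counts. Group means without 1 library, and the other scalings of rno-mir-486, were added after the data were seen.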
